A study of Mus musculus with 5 samples.

Results

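Fatty acid oxidation was followed through 35 genes listed by symbol, from the enzymes that activate fatty acids to the transcription factors that control the pathway. Of these, 34 were found in a table of 17638 genes, and Etfb was not analysed here. The filter on low values, a mean normalised read count of at least 10 over the libraries, kept 32 of them among 14339 genes tested. Cpt1b and Ppara did not pass it. Polyadenylated RNA came from cells labelled CD31+ endothelial cells, from hearts of 2-month-old mice on a C57BL/6 background, 5 days after myocardial infarction, in 3 control libraries and 2 Tbx1cko libraries. The series describes Tbx1cko as an endothelial knockout of Tbx1. The protocol says only that RNA was isolated from hearts and does not describe the sort. The labels name neither the Cre driver nor the alleles of the controls, and do not say whether libraries came from separate animals, so a p-value here measures only the spread between libraries, which may be technical.

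Long-chain fatty acids are first joined to coenzyme A by acyl-CoA synthetases. The carnitine shuttle then carries them into the mitochondrion, where each turn of beta-oxidation runs through a dehydrogenase, a hydratase, a second dehydrogenase and a thiolase, and peroxisomes run a parallel route. Heart muscle draws most of its energy from this pathway. Endothelial cells, better known for glycolysis, also use it, for nucleotide synthesis, redox balance and, in lymphatic endothelium, cell identity. PPAR-alpha and PPAR-delta are nuclear receptors that bind fatty acids and switch on many of these genes.

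Values below are normalised reads, read counts divided by a size factor of the library, listed for control replicates 1, 2, 3 and then Tbx1cko replicates 1, 2. Tbx1 itself stood at 64.4, 72.7 and 69.6 in controls, and at 18.3 and 17.3 in the knockout libraries. Its log2 difference was -1.89 (SE 0.297, limma adjusted p = 0.762; DESeq2 adjusted p = 0.0349). The deleted part of Tbx1 is not given in the labels. Libraries held 14689782 to 18617284 reads. Control replicate 2 stood apart: its log2 values correlated with those of the other libraries at r between 0.859 and 0.889 across genes, against 0.980 to 0.988 among the other 4, so results below are given with and without it. All 10 endothelial markers were detected, Pecam1 (CD31) at 33714.9 to 43313.2. Macrophage, mural and cardiomyocyte markers were detected as well. In such bulk libraries a change in the share of a cell type cannot be told apart from a change in RNA per cell.

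No fatty acid oxidation gene passed an adjusted p of 0.05 between Tbx1cko and control. With limma, 0 of 32 members were called and 0 had an unadjusted p under 0.05, where 0% of all genes tested were called and 1.74% had such an unadjusted p. On the recovered reads edgeR called 0 members, beside 0% of all genes, and 0 had an unadjusted p under 0.05, beside 1.98%. DESeq2 called 0 members, beside 0.0279%, and 0 had an unadjusted p under 0.05, beside 2.36%. Of the 32 members 20 were higher and 12 lower in Tbx1cko, where 52.4% of all genes tested were higher. The median log2 difference was 0.10, beside 0.03 over all genes tested, and single members ran from -0.47 to 1.16.

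Values of the groups did not overlap for 9 members. Both Tbx1cko libraries lay above all controls for 8 (Acsl5, Acadl, Acad9, Etfdh, Hadha, Hadhb, Decr1 and Angptl4), or 8 of 32 where 14.2% of all genes tested did so. Both lay below all controls for 1, Ppard, where 13.9% of all genes did so. Without control replicate 2, 27 of 32 members were higher, beside 53.3% of all genes, and the median log2 difference was 0.14, beside 0.02. Groups then did not overlap for 16 members higher, beside 19.7% of all genes, and for 1 member lower, beside 17.8%. The 16 held all 8 named above and added Acadm, Acads, Acox3, Cpt1a, Ech1, Eci2, Hadh and Hsd17b4. Without that library limma called 0 members, beside 0.0209% of all genes, with a smallest adjusted p of 0.402. An unadjusted p under 0.05 was found for 3 members (Acadl, Etfdh and Angptl4, all higher), beside 7.46% of all genes and 3.39% higher. edgeR then called 0 members, beside 0.00697%, with 3 at an unadjusted p under 0.05, beside 7.46%. DESeq2 called 0, beside 0.544%, with 2 at an unadjusted p under 0.05, beside 5.15%. Control replicate 2 was the highest library for 15 of 32 members and the lowest for 10, where 41.1% and 41.5% of all genes tested had it so. Tbx1cko replicate 2 was the highest for 8 of 32, beside 19.8%.

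**Figure D1:**
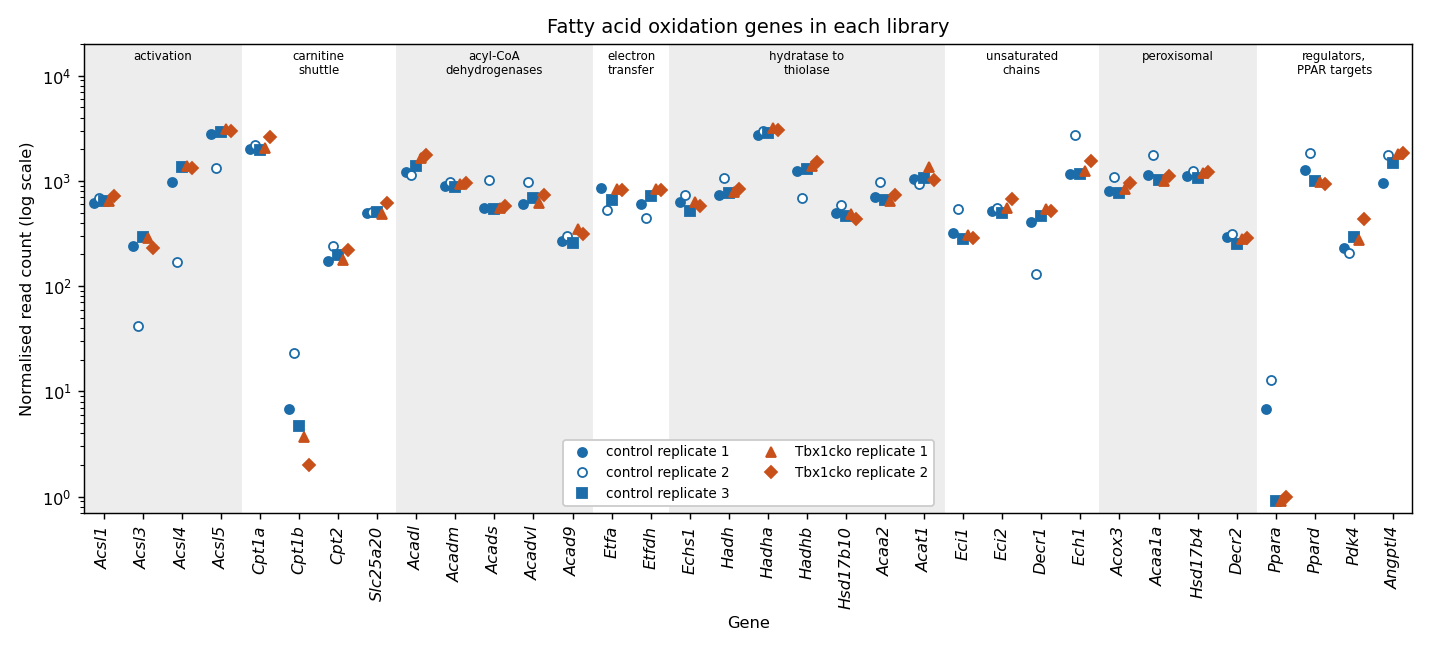
Normalised read count (log scale) of the 34 members found in the table, in each library, grouped by role, with 1 point per library. Most members lie within a narrow band across libraries, control replicate 2 (open circles) falls far below for Acsl3, Acsl4 and Decr1, and Cpt1b and Ppara lie at or below 23.0 in every library.

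The most abundant members per kilobase of transcript, as the mean level in controls, were Ech1 at 1325 normalised reads per kb, Acaa1a at 743, Hadha at 713 and Acadl at 649. In Tbx1cko the levels per kb were 1102, 600.1, 773 and 887, and Acsl5 at 719 and Hadhb at 709 also stood above Acaa1a. Ech1 lay above every other member in each library, though its single libraries ran from 908 to 2154. Below it the order is loose, since those of Acaa1a ran from 571 to 1000.2, of Hadha from 685 to 784 and of Acadl from 592 to 916. Acaa1a had its highest value in control replicate 2. Of the tested members the lowest were Acsl3 at 48.6 per kb in controls, Pdk4 at 69.8 and Acad9 at 70.0. The control mean of Acsl3 includes 10.5 per kb in control replicate 2, its lowest library. The untested Cpt1b and Ppara lay below them, at 3.97 and 2.01.

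Fatty acid activation is shared by 4 acyl-CoA synthetases, and all 4 had a log2 difference above 0 with 5 libraries, though Acsl3 was at -0.04 without control replicate 2 and Acsl1 at -0.02 after GC correction. Acsl5, a mitochondrial and endoplasmic reticulum enzyme, had 2814.6, 1313.5 and 2908.4 normalised reads in the controls, then 3106.0 and 2994.0 in the knockout libraries. Both Tbx1cko values were the highest, and control replicate 2 read at less than any other library. The log2 difference was 0.47 (standard error, SE, 0.394, limma adjusted p = 0.762), and 0.09 without control replicate 2. Acsl4, which prefers arachidonic acid, had 981.9, 169.2 and 1348.4 in controls, against 1399.4 and 1326.8 in the knockout libraries. Groups overlapped, and the log2 difference of 1.16 (SE 0.907, limma adjusted p = 0.762) was 0.24 without control replicate 2. Acsl3, a lipid droplet enzyme, showed the same low library, at 41.4 in control replicate 2 and 232.3 to 296.4 in the other 4. Acsl1, the main synthetase feeding oxidation in heart, overlapped between groups, at 619.2 to 692.6 in controls and 641.1 and 718.4 in Tbx1cko.

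Of the carnitine palmitoyltransferase isoforms at the start of the shuttle, the liver type stood at 477 normalised reads per kb in controls (Cpt1a) and the muscle type at 3.97 (Cpt1b). Cpt1a, the rate-limiting gate on the outer mitochondrial membrane, had 2006.7, 2202.0 and 1964.7 normalised reads in controls, against 2074.3 and 2600.7 in the knockout libraries. Only Tbx1cko replicate 2 lay above every control, and the log2 difference was 0.18 (SE 0.195, limma adjusted p = 0.763) and 0.23 once control replicate 2 was dropped. Dropping Tbx1cko replicate 2 gave 0.01. Cpt1b, the muscle isoform of the same enzyme, rested on 6, 25 and 5 reads in controls and 4 and 2 reads in Tbx1cko, or 2.0 to 23.0 normalised. Its values were lower in both Tbx1cko libraries, on too few reads to be tested. The carnitine-acylcarnitine carrier Slc25a20 had 494.9, 509.6 and 508.1 in controls, against 486.6 and 620.6 in the knockout libraries. Cpt2, which returns the acyl group to coenzyme A inside the mitochondrion, ranged from 172.9 to 241.9 over all 5 libraries, with its groups overlapping.

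Among the acyl-CoA dehydrogenases, which start each turn and differ in the chain length they accept, Acadl had the smallest unadjusted p of all members. This long-chain enzyme (chr1:66830839-66863277 in GRCm38, minus strand, protein-coding) had 1222.6, 1134.1 and 1374.7 normalised reads in controls, against 1642.6 and 1754.8 in the knockout libraries. Both Tbx1cko libraries lay clear of all controls, at 1699 ± 79.3 (SD, n = 2) against 1244 ± 122 (SD, n = 3). The log2 difference was 0.45 (SE 0.190), with an unadjusted limma p of 0.0585 and an adjusted p of 0.762. It was 0.39 without control replicate 2 (limma adjusted p = 0.446), but 0.06 with all 5 libraries after GC correction, which removes a smooth trend of each library against transcript GC content, and 0.32 with both changes. Acad9, which also assembles respiratory complex I, had 266.7, 299.9 and 258.8 in controls, against 353.0 and 311.8 in the knockout libraries. Its log2 difference was 0.27 (SE 0.216, limma adjusted p = 0.762), and 0.13 after GC correction. It was 0.34 without control replicate 2, and 0.31 with both changes.

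The medium, short and very long chain enzymes were close between groups. Acadm ran from 867.5 to 967.6 in controls and stood at 934.7 and 948.8 in Tbx1cko. Acads and Acadvl were highest in control replicate 2, at 1017.3 and 971.3, and the other 4 libraries held 544.8 to 572.7 of Acads and 598.8 to 741.9 of Acadvl.

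Electron transfer flavoprotein passes electrons from these dehydrogenases to Etfdh and on to ubiquinone. Etfdh had 598.8, 440.6 and 726.4 normalised reads in controls, against 831.4 and 816.3 in the knockout libraries. Its 2 Tbx1cko values were close together and above every control, and the log2 difference was 0.51 (SE 0.272, limma adjusted p = 0.762). The difference was 0.32 without control replicate 2 and 0.30 after GC correction. The alpha subunit gene Etfa had 857.6, 531.7 and 660.5 in controls, against 837.8 and 827.5 in the knockout libraries, so control replicate 1 was the highest and groups overlapped.

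**Figure D2:**
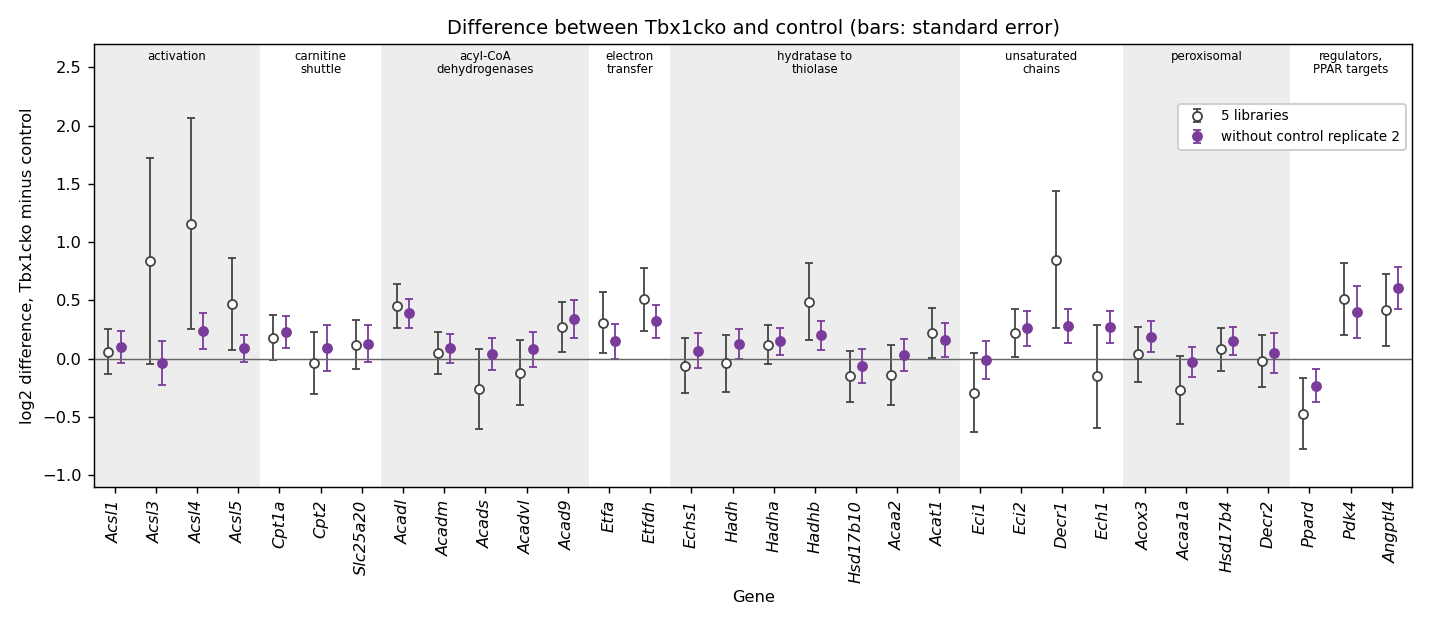
Log2 difference (Tbx1cko minus control) of the 32 members tested, with standard errors, over 5 libraries (open) and without control replicate 2 (filled). Without that library 27 of 32 lie above 0, the large differences of Acsl3, Acsl4 and Decr1 shrink to -0.04, 0.24 and 0.28, and Angptl4 has the highest value, 0.61.

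The later steps of the cycle are run by the mitochondrial trifunctional protein for long chains and by separate enzymes for shorter ones. The alpha and beta subunits of the trifunctional protein, Hadha and Hadhb, lie head to head on chromosome 5, and both had Tbx1cko libraries above all controls. The stretch between their GENCODE M21 gene models is shown because both genes start from it, chr5:30155163-30155247 in GRCm38, plus strand, with its sequence from RefSeq.

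Hadha to Hadhb: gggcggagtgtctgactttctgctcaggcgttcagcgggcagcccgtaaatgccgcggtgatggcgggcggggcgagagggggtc

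These 85 bases are 69.4% GC and held 0 matches to AGGTCA on either strand, so nothing is in capitals. Hadha had 2753.6, 2988.5 and 2847.3 normalised reads in controls, against 3150.8 and 3062.3 in the knockout libraries, for a log2 difference of 0.12 (SE 0.166, limma adjusted p = 0.785). Hadhb had 1244.0, 692.6 and 1285.3 in controls, against 1390.2 and 1515.4 in the knockout libraries, for a log2 difference of 0.49 (SE 0.329, limma adjusted p = 0.762). Without control replicate 2 the pair stood closer, at 0.15 for Hadha and 0.20 for Hadhb. GC correction of all 5 libraries gave 0.19 and 0.12.

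The other enzymes of these steps overlapped between groups. Acat1, the thiolase that also serves ketone bodies, had 1050.8, 943.7 and 1065.1 normalised reads in controls, against 1360.0 and 1030.3 in the knockout libraries, where only replicate 1 stood out. The hydratase Echs1, the dehydrogenases Hadh and Hsd17b10 and the thiolase Acaa2 had log2 differences of -0.06, -0.04, -0.15 and -0.14, and each was highest in control replicate 2. Without that library they were 0.07, 0.13, -0.06 and 0.03.

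Double bonds in unsaturated chains need auxiliary isomerases and reductases. Decr1, the mitochondrial 2,4-dienoyl-CoA reductase, had 411.3, 130.6 and 460.1 normalised reads in controls, against 540.5 and 515.6 in the knockout libraries. The groups did not overlap, and the log2 difference of 0.85 (SE 0.587, limma adjusted p = 0.762) was 0.28 without control replicate 2 and 0.40 after GC correction. Ech1, a dienoyl-CoA isomerase, went the other way in that library, with 1155.9, 2729.1 and 1150.8 in controls, against 1238.4 and 1555.1 in the knockout libraries. Its log2 difference was -0.15 with all libraries and 0.27 without control replicate 2. The isomerase Eci2 had 523.1, 553.7 and 497.8 in controls, against 550.6 and 677.7 in the knockout libraries. Eci1, the main mitochondrial isomerase, had 539.0 in control replicate 2 and 278.5 to 323.2 in the other 4 libraries.

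Peroxisomal members showed no separation of the groups with all 5 libraries, and all 4 were highest in control replicate 2. Acaa1a, the peroxisomal thiolase, had 1137.8, 1762.4 and 1028.4 normalised reads in controls, against 1006.1 and 1108.7 in the knockout libraries. Its log2 difference of -0.27 (SE 0.290, limma adjusted p = 0.762) was -0.03 without control replicate 2 and 0.12 after GC correction, so the direction depended on that step. The bifunctional enzyme Hsd17b4 had 1110.7, 1245.4 and 1072.7 in controls, against 1200.0 and 1219.8 in the knockout libraries. The branched-chain oxidase Acox3 ranged from 765.9 to 1080.8 over the 5 libraries, and the reductase Decr2 from 253.1 to 311.8.

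Of the regulators, Ppara was almost undetected, with 6, 14 and 1 reads in controls and 1 and 1 in Tbx1cko. Ppard had 1267.7, 1853.4 and 998.3 normalised reads in controls, against 982.3 and 941.6 in the knockout libraries. It was the sole tested member lower in Tbx1cko without overlap, and control replicate 3 lay close above. The log2 difference of -0.47 (SE 0.304, limma adjusted p = 0.762) was -0.23 without control replicate 2 and -0.07 after GC correction.

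Angptl4 and Pdk4 are textbook PPAR targets. Angptl4, which inhibits lipoprotein lipase (chr17:33773750-33781830 in GRCm38, minus strand, protein-coding), had 950.2, 1763.3 and 1490.4 normalised reads in controls, against 1788.1 and 1836.4 in the knockout libraries. Both Tbx1cko libraries were highest, though control replicate 2 lay just under them, and the log2 difference was 0.42 (SE 0.307, limma adjusted p = 0.762). Without control replicate 2 the difference was 0.61, with a limma adjusted p of 0.402 and a DESeq2 adjusted p of 0.192, the smallest of any member under any setting. It was 0.16 without control replicate 1, which had the lowest value, and 0.45 after GC correction. Pdk4, the kinase that shuts pyruvate dehydrogenase when fat is burned, had 231.6, 205.1 and 292.6 in controls, against 273.5 and 432.1 in the knockout libraries. Only Tbx1cko replicate 2 lay above the controls, and the log2 difference of 0.51 (SE 0.308, limma adjusted p = 0.762) was 0.18 without it and 0.10 after GC correction. The difference was 0.40 without control replicate 2, and 0.32 when GC correction was added.

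PPAR and ERR receptors bind repeats or extensions of the hexamer AGGTCA, so RefSeq promoters (GRCm38.p6, the 250 bases before each start, both strands) were searched for these letters. Of the 35 members 28 had an entry, with 29 promoters. The PPAR element DR1, a direct repeat of the hexamer with a 1-base spacer, was found in 0 of the 29 and in 0.0335% of 32851 promoters. The ERR element TCAAGGTCA was found in 0 of the 29 and in 0.387% of all. The hexamer alone, which both longer motifs contain, was in 4 of the 29 and in 14.0% of all. Those 4 are shown as 60-base windows on the strand of the gene, the hexamer in capitals (TGACCT where it reads on the opposite strand). A match is a string of letters and not evidence of binding. The exact longer strings are so rare over all promoters that 0 in 29 says little about the members. Imperfect repeats were not searched.

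Cpt1a, chr19:3323180-3323239, plus strand: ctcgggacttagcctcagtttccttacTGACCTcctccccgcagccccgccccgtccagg
Acadvl, chr11:70015483-70015542, minus strand: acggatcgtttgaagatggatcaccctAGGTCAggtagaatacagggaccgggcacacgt
Echs1, chr7:140116472-140116531, minus strand: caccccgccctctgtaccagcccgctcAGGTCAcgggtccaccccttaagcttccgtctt
Acadm, chr3:153944834-153944893, minus strand: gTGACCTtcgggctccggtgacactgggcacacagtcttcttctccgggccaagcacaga

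None of these 4 genes had non-overlapping groups with all 5 libraries. Without control replicate 2 their log2 differences were 0.23, 0.08, 0.07 and 0.09 in the order shown. Groups then did not overlap for Cpt1a and Acadm, both higher, where 16 of 32 members and 19.7% of all genes tested did so.

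How far control replicate 2 stood from the rest depended on the base composition of the member. Its log2 deviation from the mean of the other 4 libraries ran from -2.88 for Acsl4, whose transcript is 39.0% GC, to 1.11 for Ech1, at 54.4% GC. Across the 32 members the deviation followed GC content with a Pearson r of 0.84 and a Spearman rho of 0.91, and across 13747 genes tested with 0.75 and 0.81. These describe genes that share the same libraries. All 8 members below 46% GC were lower in that library than in the mean of the other 4, and all 9 members at 52% GC or above were higher. The log2 differences of members between Tbx1cko and control followed GC as well, with a rho of -0.88 over 5 libraries, -0.45 without control replicate 2 and -0.12 after GC correction. After GC correction of all 5 libraries, 22 of 32 members were higher, where 7496 of 14339 genes tested were. The median log2 difference of the members was 0.10, beside 0.02 over all genes tested. With control replicate 2 left out and GC corrected, 29 of 32 were higher, and limma called 0 members and 0 of all genes tested. The median of the members was then 0.13, beside 0.02 over all genes tested. The share of all genes that were higher in that setting was not computed.

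**Figure D3:**
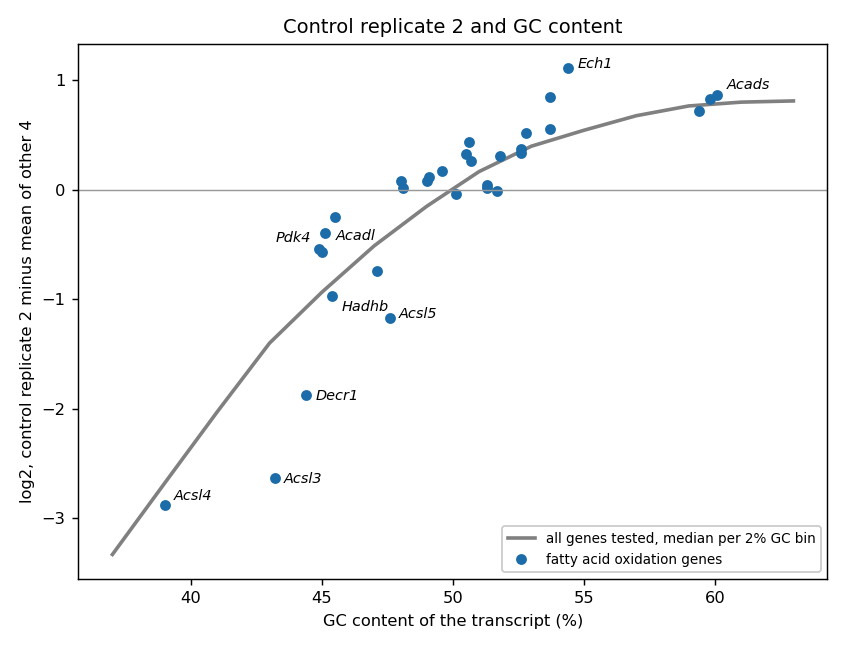
Log2 value of control replicate 2 minus the mean of the other 4 libraries against the GC content of the transcript, for the 32 members tested (points) and as the median of all genes tested per GC bin (line). Members rise along the line from -2.88 (Acsl4) to 1.11 (Ech1), and Acsl3, at -2.63, lies below the line.

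Other genes of the pathway, from a list of 41 with 37 tested, showed no shared direction. limma called 0 of 37, 15 were higher and 22 lower, and the median log2 difference was -0.07. Groups did not overlap for 3 higher and 5 lower, where 14.2% and 13.9% of all genes tested did so. Without control replicate 2, 22 were higher and 15 lower, with a median of 0.05. The 3 with the smallest unadjusted p are regulators. Ppargc1a, the coactivator PGC-1-alpha, had 7.9, 3.7 and 8.5 normalised reads in controls, against 24.7 and 14.3 in the knockout libraries, for a log2 difference of 1.43 (SE 0.563, limma adjusted p = 0.762) that rests on few reads. Its relative Ppargc1b had 48.6, 84.6 and 40.5 in controls, against 19.2 and 31.6 in the knockout libraries, for a log2 difference of -1.13 (SE 0.461, limma adjusted p = 0.762). Neither overlapped between groups, and they differed in opposite directions. The differences of Ppargc1a and Ppargc1b were 1.11 and -0.82 without control replicate 2, and 0.69 and -0.79 after GC correction. Pparg, the third PPAR, had 874.5, 847.1 and 866.6 in controls, against 1084.7 and 1215.8 in the knockout libraries. Its log2 difference was 0.41 (SE 0.183, limma adjusted p = 0.762). It was 0.40 without control replicate 2, 0.03 after GC correction (SE 0.302), and 0.33 with both changes.

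Of 11 genes of fatty acid uptake, which supplies this pathway, limma called 0, and 7 were higher and 4 lower. Fabp4, a fatty acid carrier of capillary endothelium, had 50986.7, 49794.2 and 48109.2 normalised reads in controls, against 63723.6 and 76762.5 in the knockout libraries. Its log2 difference was 0.50 (SE 0.160, limma adjusted p = 0.762). After GC correction of all 5 libraries it turned to -0.40 (SE 0.764). It was 0.50 without control replicate 2, and 0.40 with both changes. Fabp5, a related carrier, had 4282.3, 5994.4 and 5400.0 and then 7176.0 and 9298.0, a log2 difference of 0.66 (SE 0.231, limma adjusted p = 0.762). It was 0.31 after GC correction (limma adjusted p = 0.837). Without control replicate 2 Fabp5 passed in DESeq2, at an adjusted p of 0.00307, and not in limma (0.220) or edgeR (0.237). Lipoprotein lipase, Lpl, had 5003.2, 3312.3 and 5992.8 and then 6735.2 and 12753.7, a log2 difference of 1.0 (SE 0.384, limma adjusted p = 0.762) that was 0.54 without Tbx1cko replicate 2.

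Of the 18 citric acid cycle genes, which take up the acetyl-CoA made by oxidation, 10 were higher and 8 lower. The median log2 difference was 0.01, and limma called 0. Without control replicate 2, 15 were higher and 3 lower, with a median of 0.10. The 3 with the smallest unadjusted p, Sucla2, Suclg2 and Dld, had log2 differences of 0.88, 0.47 and 0.96 that were 0.27, 0.13 and 0.11 without control replicate 2. Their transcripts are 40.6% to 44.4% GC. Groups did not overlap for 2 of the 18, Sucla2 and Dld, both higher, where 14.2% of all genes tested did so. Without control replicate 2 this held for 5, all higher, beside 19.7%.

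Marker lists of other cells also differed between libraries. limma and edgeR called 0 markers with all 5 libraries and 0 without control replicate 2. DESeq2 called 1 with all 5, Myl7 (adjusted p = 0.0349, lower), beside 0.0279% of all genes tested. DESeq2 called 10 markers once control replicate 2 was dropped, beside 0.544% of all genes tested. These were 5 mural markers (Notch3, Pdgfrb, Abcc9, Cspg4 and Acta2) and 4 lymphatic endothelial markers (Prox1, Reln, Mmrn1 and Ccl21a), all lower, and the platelet marker Pf4, higher. The smallest adjusted p was that of Notch3, 8.12e-05. In that setting DESeq2 gave Myl7, again lower, no adjusted p, and its unadjusted DESeq2 p was 2.84e-06. Summed over the list, members had 28159.4, 30730.1 and 28882.1 normalised reads in the controls, then 31405.0 and 32697.9 in the knockout libraries. The 16 cardiomyocyte markers summed to 11831.2, 20644.3 and 10346.6 in controls, against 14605.4 and 12981.9 in the knockout libraries, so without control replicate 2 both sums were higher in Tbx1cko. Groups then did not overlap for 11 of the 16 markers, higher, beside 19.7% of all genes tested, and for 1, Myl7, lower, beside 17.8%. Their part in the result was not tested. Myh6, the main adult cardiac myosin, had 773.5 to 2327.1 in controls and 1221.9 and 1074.1 in Tbx1cko, while Cpt1b was at or below 23.0. The 11 macrophage markers summed to 64796.4 to 104632.1 in controls and 99677.0 and 101160.1 in Tbx1cko, with control replicate 1 the highest of all. The 10 endothelial markers summed to 175014.5 to 231506.5 in controls and 173100.9 and 163017.7 in Tbx1cko, and the 10 mural markers to 48702.4 to 60776.2 and 40088.3 and 41911.3. Both of those lists were lower in Tbx1cko, where the members' sum was higher. All 5 neutrophil markers and 4 of 5 tested platelet markers were higher in Tbx1cko, with sums of 586.8 to 929.9 and 1362.7 to 2376.8 in controls, against 1264.9 and 1216.8, and 3685.9 and 3217.2. All 7 lymphatic endothelial markers were lower, with sums of 11205.2 to 14484.3 against 9567.7 and 8167.9. Erythroid markers split the knockout libraries, with sums of 6902.7 to 19522.2 in controls against 17603.5 and 4888.5. All 5 were lowest in Tbx1cko replicate 2, and 3 of them were highest in Tbx1cko replicate 1. The part of these lists in the result was not tested. Of 6 adipocyte markers only Cfd was in the table, at 3.1 to 16.5.

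**Figure D4:**
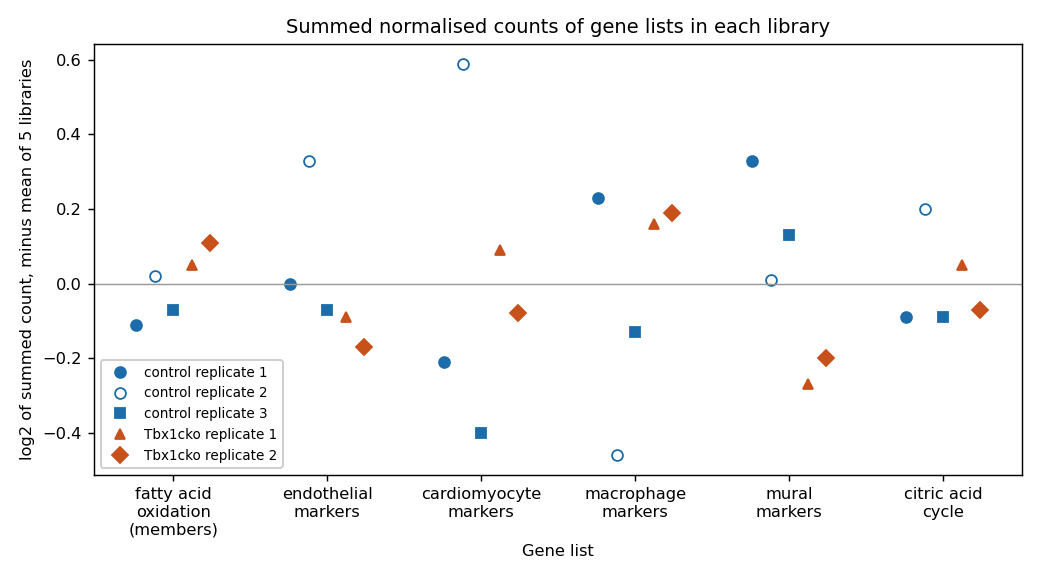
Log2 of the summed normalised counts of each list, minus its mean over the 5 libraries, with 1 point per library. The members span -0.11 to 0.11 with both Tbx1cko libraries highest, control replicate 2 reaches 0.59 for cardiomyocyte markers, and endothelial and mural markers lie lowest in Tbx1cko.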

How the data were processed

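RNA-seq of 3 control and 2 Tbx1cko libraries was compared. The submitters' processing notes list the aligner STAR (version 2.5.2b), DESeq, R (3.5.1), DESeq2 (1.20.0) and the build GRCm38 (mm10). Which program counted reads, with which annotation and strand setting, is not given in the sources used here. Each deposited value is a signal: the reads of a gene over a library size factor. Whole reads within 0.01 were recovered for 100% of values.

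Log2(normalised count + 1) was modelled with limma 3.58.1 under R 4.3.3, for 14339 genes with a mean of at least 10. Genotype was the single covariate, the prior was trended, tests were 2-sided, and Benjamini-Hochberg adjustment ran over all genes. Log2 differences are on that scale, which understates low genes. Alternatives were edgeR 4.0.16 and DESeq2 1.42.0 on the recovered reads, pseudocounts, filters, TMM, quantile normalisation, priors, a replicate block, each library left out, and GC correction (loess, span 0.3). GC content and length came from 1 GENCODE M21 transcript per symbol, for 95.9% of genes tested. Fits were tested on simulated counts, modelled on the libraries other than control replicate 2. The simulation held no library that stood apart as that one does.

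The members and lists were chosen with earlier results of these data known. By rule, values per library were given for members whose groups did not overlap and, in each role, for the 2 with the smallest p and the 1 most abundant per kb. Differences were given for the first kind and the smallest p of each role, and for 3 genes per list of other genes. Values of Acsl1, Acsl3, Cpt1b, Ppara and Myh6, single libraries of Acads, Acadvl and Eci1, and differences of Acsl1, Acsl3, Ech1, Echs1, Hadh, Hsd17b10, Acaa2, Acadvl and Acadm were added after their values were seen.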

Additional observations from a re-analysis of the deposited data

How the results depend on the processing

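Over 20 alternatives, 0 members passed an adjusted p of 0.05 in each, and the median log2 difference of the members ran from 0.02 to 0.14, against 0.10 in the main comparison, so each moved by less than the pooled SD between libraries of the members' median (0.082). It was lowest with quantile normalisation, where 17 of 32 were higher, and without Tbx1cko replicate 2. Over all genes, 0 were called in the main comparison, 3 with a replicate block, 4 with DESeq2, and 1 with edgeR and 78 with DESeq2 when control replicate 2 was left out. Leaving out 1 library at a time gave 0 to 3. Of the 13 members whose difference was given by rule (no overlap, or the smallest p of a role), 12 kept their direction in every alternative. Acaa1a turned to 0.12 with GC correction and to 0.11 with GC correction without control replicate 2. Of the members added after their values were seen, Acsl3, Ech1, Echs1, Hadh, Acaa2 and Acadvl changed sign without control replicate 2. Acsl1 and Acadm changed sign with GC correction. Fabp4 turned to -0.40 with GC correction, and stood at 0.40 with GC correction without control replicate 2. The cause was not tested. Among the 13 members given by rule, the widest ranges were those of Acsl4 (0.13 to 1.74) and Decr1 (0.20 to 1.18), and Acadl ran from 0.06 to 0.53. The shared replicate numbers gave no sign of pairing: deviations correlated at -0.056 for number 1 and -0.046 for number 2. With 2 Tbx1cko libraries their deviations mirror each other, so this check cannot exclude a pairing. With the replicate block Acsl3, Acsl4 and Decr1 had an unadjusted limma p under 0.05 and the smallest adjusted p of a member was 0.255. Only control replicate 3 carries number 3, so the block differences equal those with that library left out (Acsl4 1.74, Decr1 1.18). The block is therefore not a separate estimate. With 3 against 2 libraries and control replicate 2 apart, small differences could not be resolved, and Cpt1b and Ppara, at most 25 reads in any library, allowed no comparison.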

Other observations

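Several lipid genes had their highest value in Tbx1cko replicate 2, a set picked after the values were seen. For Ucp3 and Lpl, Tbx1cko replicate 1 also lay above all controls. The uncoupling protein gene Ucp3 had 5.6, 3.7 and 3.8 normalised reads in controls, 8.2 in Tbx1cko replicate 1 and 24.5 in replicate 2. These values are too low for the filter, so Ucp3 was not tested. Plin2, a lipid droplet coat protein and PPAR target, had 4535.4, 5965.9 and 4692.5, then 5179.4 and 7312.9. Pdk4, Cpt1a, Slc25a20, Eci2 and Lpl had the same highest library. The log2 gap between the 2 Tbx1cko libraries was 1.46 for Ucp3, 0.92 for Lpl, 0.66 for Pdk4, 0.50 for Plin2 and 0.35 for Slc25a20. Over all tested members this library was the highest of the 5 for 8 of 32, beside 19.8% of all genes tested, and the median log2 gap was 0.04. Angptl4, with 1788.1 and 1836.4 in the 2 Tbx1cko libraries, showed no such gap. The fibroblast markers summed to 39668.3 in Tbx1cko replicate 2 and 19483.0 in replicate 1, with 21257.9 to 37631.3 in controls, and their part was not tested.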
